A study of Homo sapiens with 4 samples.

Results

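The long noncoding RNAs described here are the LINC genes, whose symbol is LINC followed by digits, in THP-1 cells given an antisense oligonucleotide against the long noncoding RNA SGOL1-AS1. Members were chosen by their symbol and by a mean of at least 20 normalized counts over the 4 libraries, which left 285 of the 683 LINC genes in a table of 27106 genes. A normalized count is the number of reads of a gene scaled by 1 factor for its library. THP-1 is an established cell line from a human monocytic leukaemia. Antisense oligonucleotides are short synthetic strands that base-pair with a chosen RNA, often leading to its cleavage. Total RNA was sequenced from cells with a non-targeting oligonucleotide (2 libraries) and with the oligonucleotide against SGOL1-AS1 (2 libraries), all labelled day 5. The columns of the anti-SGOL1-AS1 group were assigned by elimination, since their shared code is not defined in the labels, and every direction below rests on that assignment. It is a single code, so a second oligonucleotide against SGOL1-AS1 was not compared. Libraries are numbered here in column order, and values are given in that order. Nothing in the labels ties the libraries of a group to separate cultures, so p-values reflect the variation among these 4 samples alone, and that variation may be technical.

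Long intergenic noncoding RNAs are transcribed by RNA polymerase II, and are mostly capped, spliced and polyadenylated like messenger RNAs. They tend to be kept in the nucleus and to be degraded faster, in part by the nuclear exosome, and most are low in abundance and restricted to few cell types. A LINC symbol is a placeholder that is given where no function is known, so the members share a naming rule and not a pathway. A few LINC transcripts were later found to encode small proteins.

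Reads assigned to genes numbered 50855150 and 51851314 for the non-targeting pair, and 48558537 and 41435922 for the anti-SGOL1-AS1 pair. The targeted RNA, listed under its current symbol SGO1-AS1, had 23.0 and 19.8 normalized counts with the non-targeting oligonucleotide, against 11.5 and 19.4. Its difference did not pass the threshold, an adjusted p under 0.05 over all genes tested (log2 fold change -0.48 ± 0.37 SE, limma adjusted p = 0.555), so it does not check the labels. All 12 monocyte markers listed were in the table, while 3 of 5 T lymphocyte markers were not analysed here and the other 2 summed to at most 16.0 normalized counts in a library. The monocyte marker CD14 stood at 94.7 to 110.4 normalized counts, and 2 of the 12 markers, FCGR1A and CD4, fell.

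The label of intergenic RNAs held for most members. In GENCODE 29 on GRCh38, 237 of the 285 members were of type lincRNA and 3 were annotated as protein-coding, and 73 carried another name there. The gene bodies of 260 members overlapped no protein-coding gene, 15 overlapped 1 on the same strand and 10 on the opposite strand only. Whether reads were counted by strand is not stated, so reads of these 25 members could belong to the overlapping gene. A start within 1000 bases of a coding gene's start on the opposite strand, the arrangement of a shared bidirectional promoter, was found for 14 members.

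The members were low. Their median over the 4 libraries was 66.3 normalized counts, with quartiles of 32.6 and 212, against a median of 1373 for protein-coding genes under the same minimum. Per kilobase of exon the medians were 40.2 normalized counts for the members and 269 for protein-coding genes. In all, 108 members had a mean of at least 100 and 8 of at least 1000. They had a median of 4 exons, a median exonic length of 2423 bases against 5145 for protein-coding genes, and 33 had 1 exon. The members together took 0.105% and 0.103% of the reads in the non-targeting libraries against 0.117% and 0.111% in the anti-SGOL1-AS1 libraries.

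The 6 members with the highest means held 19.4% of the members' summed level. LINC02336 was first, at 1929 and 1889 normalized counts in the non-targeting libraries against 3171 and 2419 in the anti-SGOL1-AS1 libraries, and is described below. LINC00963, studied as a transcript of tumour cells, stood at 1974 and 1814 against 1792 and 1724, and LINC02169 at 1813 and 1757 against 1642 and 1654. Both were lower in each anti-SGOL1-AS1 library than in either non-targeting library, by less than the threshold (limma, adjusted p = 0.427 and 0.364). LINC00205, which starts next to a coding gene in the opposite direction according to its GENCODE type, stood at 1545 and 1495 against 1649 and 1543, and its groups overlapped. LINC01388 stood at 1594 and 1490.2 against 1385 and 1260.2, with a log2 fold change of -0.22 ± 0.07 SE (limma, adjusted p = 0.0783). It passed the threshold without anti-SGOL1-AS1 library 1 (-0.29, limma adjusted p = 0.00961), with robust empirical Bayes (0.0464) and, at -0.33, after the GC and length correction (0.00135), as LINC02169 did after that correction (-0.19, 0.0383). LINC00926, known from B cells, stood at 1240 and 1094 against 1391 and 1218, with overlapping groups, and passed the threshold without anti-SGOL1-AS1 library 2 (0.26, limma adjusted p = 0.0387). Per kilobase of exon LINC02336 was also the highest member, at 7128 normalized counts, since its annotated exons span only 330 bases, followed by LINC01388 at 3443 and LINC02169 at 2010.

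Most LINC members that passed the threshold were higher with the oligonucleotide against SGOL1-AS1. Of the 285 members, all of which were tested, 8 rose (2.81%) and 2 fell (0.702%) by limma at an adjusted p under 0.05 over all 19398 genes tested. Of all genes tested 0.851% rose and 3.4% fell, or 4.25% in either direction against 3.51% of the members. Higher genes made up 20% of all calls, and this share was 44.5% with the same total in every library, 30.9% with the same median and 29.8% after quantile normalization. In a bulk sample, fewer cells that express an RNA and less of it per cell cannot be told apart. The number of called members, like that over all genes, changed with the library left out. The members' median log2 fold change was 0.09 without non-targeting library 1 and 0.08 without non-targeting library 2. It was 0.06 without anti-SGOL1-AS1 library 1 and 0.09 without anti-SGOL1-AS1 library 2, against 0.07 with all 4. When the mean-variance trend was left out, limma called 0 of all genes tested and so 0 members, of which 48 had an unadjusted p under 0.05. EdgeR called 7 members higher and 2 lower, where it called 0.82% and 2.87% of all genes. DESeq2 gave an adjusted p to 113 members and called 2 and 1 of them, where it called 0.531% and 3.01% of all genes with an adjusted p. By limma, 41 members were higher and 9 lower at an unadjusted p under 0.05, against 6.17% and 11% of all genes, or 17.2% together.

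**Figure D1:**
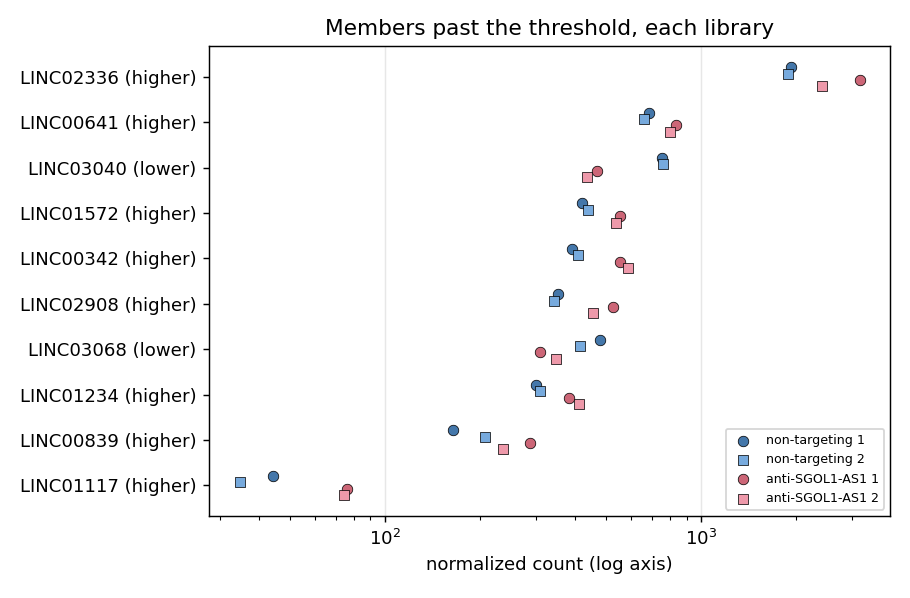
Normalized counts (horizontal log axis) of the 10 members past the threshold in each of the 4 libraries, with non-targeting libraries in blue and anti-SGOL1-AS1 libraries in red. In each of the 10 the blue and the red points do not overlap, with the red points to the right in 8 members and to the left in LINC03040 and LINC03068.

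LINC03040 fell furthest among the members past the threshold. It maps to chromosome 6, bases 44000580 to 44005958, plus strand (GRCh38), and was annotated in GENCODE 29 as a protein-coding gene under another name. It stood at 754 and 757 normalized counts in the non-targeting libraries and at 469.9 and 435 in the anti-SGOL1-AS1 libraries. The groups did not overlap, and the ratio of their means was 0.599 (log2 fold change -0.74 ± 0.09 SE, limma adjusted p = 1.36e-05). It kept its call without any of the 4 libraries, with log2 fold changes from -0.80 to -0.68. The nearest tested coding gene, MRPL14, a subunit of the mitochondrial ribosome, lay 107496 bases away and stood at -0.18 (limma, adjusted p = 0.124).

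LINC03068 was the other member that fell. It maps to chromosome 10, bases 132433733 to 132441484, minus strand, and stood at 478 and 415 normalized counts in the non-targeting libraries against 309.8 and 349 in the anti-SGOL1-AS1 libraries. All of the latter were below the former (log2 fold change -0.44 ± 0.11 SE, limma adjusted p = 0.0187). The call ended without non-targeting library 1 (-0.33, adjusted p = 0.314) and without anti-SGOL1-AS1 library 1 (-0.35, adjusted p = 0.0551). It also ended with all 4 libraries under DESeq2 (0.0930), quantile normalization (0.0564) and the same total (0.0717). LINC02870, a member 2843 bases further along and named after its values were seen, stood at 1037 and 904 against 878 and 790.4, also with no overlap (log2 fold change -0.22 ± 0.08 SE, limma adjusted p = 0.162). The nearest tested coding gene of both is PWWP2B, a chromatin-associated protein, at 1814 and 1829 normalized counts against 1508 and 1341. PWWP2B fell by 0.36 on the log2 scale (limma, adjusted p = 0.00273), which made this the only 1 of the 10 called members whose nearest tested coding gene was called too.

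LINC02336 had the highest level among those that rose. It maps to chromosome 13, bases 89551233 to 89552389, plus strand, 1846218 bases from the nearest tested coding gene, GPC5. Both anti-SGOL1-AS1 values given above exceeded the non-targeting values, the first of them by more, and the ratio of the group means was 1.46 (log2 fold change 0.54 ± 0.08 SE, limma adjusted p = 0.000334). Without anti-SGOL1-AS1 library 1 the log2 fold change was 0.34 (adjusted p = 0.00027) and without library 2 it was 0.73. LINC02336 was no longer called under DESeq2 (adjusted p = 0.0936) or the robust form of limma's empirical Bayes (adjusted p = 0.159).

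LINC00342 rose from 391 and 409 normalized counts to 556 and 586. It maps to chromosome 2, bases 95807118 to 95816215, minus strand. The groups differed by more than the spread within either (log2 fold change 0.51 ± 0.09 SE, limma adjusted p = 0.00159), and the call held without any of the 4 libraries. Of its distinct 31-base words in GENCODE 29 transcripts 48.0% also occur in transcripts of other genes, the largest share among the 10, so the split of its reads between copies is uncertain. The nearest tested coding gene, ANKRD36C, 20704 bases away and also of a duplicated family, stood at 1375 and 1476 against 1717 and 1631 (log2 fold change 0.23 ± 0.07 SE, limma adjusted p = 0.0509).

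LINC02908 rose from 352 and 342 normalized counts to 526 and 454 (log2 fold change 0.49 ± 0.10 SE, limma adjusted p = 0.00522), with no overlap between groups. It maps to chromosome 9, bases 137027464 to 137037957, plus strand, and overlaps ABCA2, a lipid transporter, on the opposite strand. ABCA2 stood at 5256 and 4827 normalized counts against 5241 and 4673, a log2 fold change of -0.03 (limma, adjusted p = 0.882). The groups of ABCA2 overlapped where those of LINC02908 did not. The call of LINC02908 held without any of the 4 libraries.

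LINC01117 had the largest log2 fold change among the members that rose, at a low level. It maps to chromosome 2, bases 176637710 to 176655958, plus strand. Its reads numbered 46 and 37 against 79 and 65, or 44.2 and 34.8 against 75.8 and 74.1 normalized counts. The groups did not overlap (log2 fold change 0.92 ± 0.23 SE, limma adjusted p = 0.0196). The call ended without non-targeting library 2 (0.75, adjusted p = 0.141) and after quantile normalization (adjusted p = 0.0527), and DESeq2 gave no adjusted p at this level.

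The remaining 4 members that rose did so by 0.28 to 0.49 on the log2 scale. LINC01572, whose gene body runs from 72283301 to 72665009 on the minus strand of chromosome 16, stood at 419.7 and 440.3 normalized counts in the non-targeting libraries against 555 and 539 in the anti-SGOL1-AS1 libraries (limma, adjusted p = 0.0297). LINC01234, at bases 113679459 to 113773683 of chromosome 12 (minus strand) and studied in carcinoma cells, stood at 301 and 310.5 against 383 and 412 (limma, adjusted p = 0.0389). In all 4 the groups did not overlap. LINC00839, at bases 42475543 to 42495336 of chromosome 10 (plus strand), stood at 164 and 208 against 288 and 236 (limma, adjusted p = 0.0446). LINC00641, at bases 21200079 to 21206900 of chromosome 14 (minus strand) and 2236 bases from HNRNPC, a nuclear RNA-binding protein gene, stood at 684 and 660.4 against 834 and 799 (limma, adjusted p = 0.0463).

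These calls lay near the threshold, and several settings ended them. With all 4 libraries DESeq2 gave adjusted p of 0.119 for LINC01572, 0.168 for LINC01234, 0.178 for LINC00839 and 0.144 for LINC00641, and quantile normalization ended the calls of LINC01234, LINC00839 and LINC00641. With a library left out the log2 fold changes were 0.31 to 0.38 for LINC01572, 0.32 to 0.43 for LINC01234 and 0.25 to 0.31 for LINC00641, and 0.32 to 0.66 for LINC00839. Without non-targeting library 1 the adjusted p was 0.264 for LINC01572, 0.255 for LINC01234, 0.464 for LINC00839 and 0.169 for LINC00641. Without non-targeting library 2 it was 0.0817 for LINC01572, 0.115 for LINC01234 and 0.257 for LINC00641. Without anti-SGOL1-AS1 library 1 LINC01572 (0.0656), LINC00839 (0.204) and LINC00641 (0.123) lost their calls, and without library 2 LINC01234 did (0.130).

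Promoters of 4 of the called members are printed as examples. They were picked for their unlike content, with 7 to 34 CG dinucleotides, and do not stand for all called members. Promoter sequences from RefSeq on GRCh38.p14, 250 bases before to 50 after the annotated start, matched 189 of the 285 members and 8 of the 10 called members by symbol. For 108 of the 189 the GENCODE 29 start lay within 50 bases of the RefSeq start. Capitals mark matches, on either strand, to any of 10 motifs: AP-1 (TGANTCA), the ISRE core, EGR (GCGNGGGCG), CRE (TGACGTCA), the E-box (CACGTG), the GC box (GGGCGG), the CCAAT box (CCAAT), the TATA box (TATAAA), ETS (CCGGAAGT) and PU.1 (GAGGAAGT). The promoters are at chr6:44000335-44000634 (plus strand), chr2:176637504-176637803 (plus strand), chr16:72664921-72665220 (minus strand) and chr10:42475241-42475540 (plus strand), each printed 5′ to 3′ on its gene's strand.
LINC03040: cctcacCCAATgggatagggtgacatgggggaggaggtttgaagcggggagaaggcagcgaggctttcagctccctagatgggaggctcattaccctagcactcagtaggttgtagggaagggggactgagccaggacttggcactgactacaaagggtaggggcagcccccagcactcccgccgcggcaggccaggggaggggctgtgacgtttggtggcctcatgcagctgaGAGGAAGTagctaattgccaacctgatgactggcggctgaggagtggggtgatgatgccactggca
LINC01117: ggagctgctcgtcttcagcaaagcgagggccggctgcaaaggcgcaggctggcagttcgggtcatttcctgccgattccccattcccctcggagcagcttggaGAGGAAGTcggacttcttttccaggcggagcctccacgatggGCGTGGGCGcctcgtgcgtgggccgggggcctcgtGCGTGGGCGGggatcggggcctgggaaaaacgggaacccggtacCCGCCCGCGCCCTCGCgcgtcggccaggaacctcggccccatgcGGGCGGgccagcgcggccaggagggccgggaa
LINC01572: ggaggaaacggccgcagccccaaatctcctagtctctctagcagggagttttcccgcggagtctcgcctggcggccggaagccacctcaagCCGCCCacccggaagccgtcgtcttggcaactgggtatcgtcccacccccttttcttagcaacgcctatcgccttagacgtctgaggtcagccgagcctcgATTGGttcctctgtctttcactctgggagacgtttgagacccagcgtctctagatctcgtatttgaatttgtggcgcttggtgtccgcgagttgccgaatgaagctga
LINC00839: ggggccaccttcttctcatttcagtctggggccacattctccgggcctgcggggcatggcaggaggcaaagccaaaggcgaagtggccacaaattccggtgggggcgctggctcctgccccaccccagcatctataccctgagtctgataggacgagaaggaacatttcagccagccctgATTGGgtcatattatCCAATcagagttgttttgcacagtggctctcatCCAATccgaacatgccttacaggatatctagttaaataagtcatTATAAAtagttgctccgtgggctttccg

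The promoter of LINC01117 was 71% G or C with 34 CG dinucleotides, and held 4 EGR matches. These began at positions -105, -70, -25 and -19 from the start, and the last pair overlap each other. The match at -70 overlaps a GC box at -66, and the match at -25 overlaps a GC box at -26. EGR matches were found in 9.43% of all 35116 promoters of this length and in 12 of the 189 member promoters (6.35%), and LINC01117 was the only 1 of the 8 called members with one. The promoter of LINC00839, like that of LINC01234, held 3 CCAAT boxes, in LINC00839 at -70, -55 and -22, and TATA box letters after the start. LINC01572 had 24 CG dinucleotides, a GC box and a CCAAT box. The promoter of LINC03040 held a PU.1 match at -16 and that of LINC01117 one at -147, where 2.59% of all promoters and 3.70% of member promoters held one. CCAAT boxes were found in 4 of the 6 matched members that rose and both that fell, in 47.1% of member promoters and in 34.6% of all. AP-1 and ISRE letters were in none of the 8, and in 8.99% and 4.76% of member promoters against 7.71% and 3.57% of all. Member promoters had a median of 8 CG dinucleotides and all promoters 14. A match is a run of letters and not a bound site.

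The shift was not limited to members past the threshold. The median log2 fold change of the 285 members was 0.07, with quartiles of -0.08 and 0.30, against -0.01 for all genes tested and -0.03 for protein-coding genes with the same minimum mean. Of the members 181 (63.5%) had a log2 fold change above 0, against 47.5% of all genes tested. Relative to the mean of the non-targeting libraries, the members' median stood at 0.09 in anti-SGOL1-AS1 library 1 and 0.06 in library 2, and at 0.01 and -0.01 in the non-targeting libraries. Both anti-SGOL1-AS1 libraries were thus on the higher side. The median was positive under each alternative run, from 0.05 after quantile normalization to 0.13 with the same total in every library. These put the median of all genes at 0.01 and 0.05, so the members stood less far above all genes after quantile normalization. The groups did not overlap in 138 members, with 92 higher (32.3%) and 46 lower (16.1%). Of all genes tested, 21.6% were higher and 25.1% lower without overlap, 46.7% together against 48.4% of the members.

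**Figure D2:**
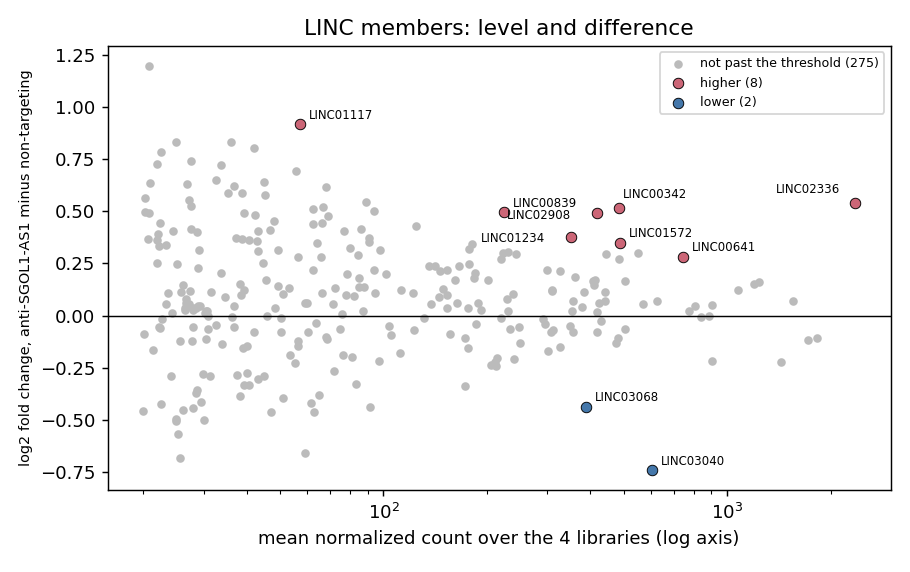
Mean normalized count over the 4 libraries (horizontal log axis) and log2 fold change (vertical axis, anti-SGOL1-AS1 minus non-targeting) of the 285 members, with the 8 higher in red and the 2 lower in blue. The scatter is widest at low means, where differences as large as those of called members did not pass the threshold.

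Called members were among the more abundant ones. Of the 74 members with a mean of at least 200, 7 rose (9.46%) and 2 fell (2.70%), while 1.15% of all genes at that level rose and 5.66% fell. Of the 94 members with a mean of 50 to 200, 1 rose, where 0.814% of all genes at that level rose and 0.912% fell. Of the 117 with a mean of 20 to 50 limma called 0, with 14 at an unadjusted p under 0.05, where 0.389% of all genes at that level rose and 0.248% fell. The median log2 fold changes of these 3 bands were 0.05, 0.10 and 0.08, against -0.03, 0.04 and 0.09 for all genes at the same levels. In the lowest band the members' median was therefore close to that of other genes of that level.

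Other classes of noncoding RNA had similar values. Of 590 other genes of type lincRNA with a mean of at least 20, 23 rose (3.90%) and 3 fell (0.508%), with a median log2 fold change of 0.08. Of 451 antisense genes with a symbol ending in AS and a number, 8 rose (1.77%) and 2 fell (0.443%), with a median of 0.06. Of 12670 protein-coding genes 89 rose (0.702%) and 630.0 fell (4.97%). The positive shift was thus also seen in noncoding genes without a LINC symbol, and no test of a difference between these classes was made.

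**Figure D3:**
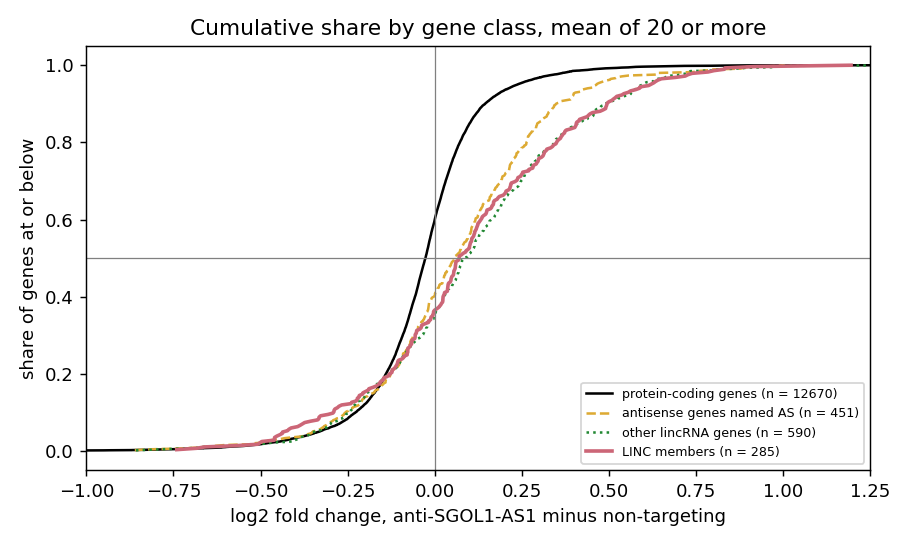
Cumulative share of genes (vertical axis) by log2 fold change (horizontal axis) for the 285 LINC members, 590 other lincRNA genes, 451 antisense genes and 12670 protein-coding genes with a mean of at least 20. The curve of the LINC members lies to the right of the protein-coding curve above the lower quartile and close to that of the other lincRNA genes.

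Among 22 tested nuclear or well-known noncoding RNAs, 3 rose and 0 fell by limma, where 0.851% of all genes rose and 3.4% fell, and the median log2 fold change was 0.08. At an unadjusted p under 0.05 there were 10, of which 9 were higher and 1 lower, against 17.2% of all genes. NEAT1, the scaffold of paraspeckles, stood at 10865 and 10894 normalized counts against 12303 and 12610.0, and rose by 0.20 on the log2 scale (limma, adjusted p = 0.0204). MALAT1, an abundant RNA of nuclear speckles, stood at 0.08 (limma, adjusted p = 0.471). KCNQ1OT1, an imprinted nuclear RNA, and CYTOR, a spliced long noncoding RNA, were named after their values were seen and rose by 0.36 and 0.29. RN7SL1, the RNA of the signal recognition particle and the most abundant on the list, was lower in both anti-SGOL1-AS1 libraries (log2 fold change -0.22 ± 0.07 SE, limma adjusted p = 0.0788). SNHG12 and OIP5-AS1 were at -0.05 and -0.04, and these were also named after their values were seen. The list thus held RNAs on both sides of 0, and its part in the shift of the LINC members was not tested.

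The largest differences without a call were in members near the minimum mean. LINC02680 stood at 14.4 and 10.3 normalized counts in the non-targeting libraries against 27.8 and 30.8 in the anti-SGOL1-AS1 libraries (log2 fold change 1.19 ± 0.35 SE, limma adjusted p = 0.0572). LINC02863 stood at 34.6 and 26.3 against 48.9 and 58.2 (log2 fold change 0.80 ± 0.26 SE, limma adjusted p = 0.0882). Each of these groups was apart. LINC01359, LINC01144 and LINC01322 were at 0.83, 0.78 and 0.74, with adjusted p from 0.143 to 0.259. On the lower side LINC01624 stood at 69.1 and 75.3 against 37.4 and 54.7 (log2 fold change -0.66 ± 0.23 SE, limma adjusted p = 0.118). LINC02608, LINC01230, LINC01962 and LINC01914 were at -0.68, -0.57, -0.51 and -0.50, with adjusted p from 0.26 to 0.453. LINC02680 passed the threshold with robust empirical Bayes (limma adjusted p = 0.0357) and with the same median in every library (0.0332). Without anti-SGOL1-AS1 library 2, LINC01359 stood at 1.30 (limma adjusted p = 0.00548) and LINC01624 at -0.93 (0.0154), both past the threshold. LINC02340 and LINC00920 lay just above the minimum mean, at log2 fold changes of -0.09 and -0.46, and LINC01270 and LINC02988 just below it, at 0.03 and -0.69. Of the 93 LINC genes with a mean of 10 to 20, limma called 0.

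A list of LINC genes with a known small protein or with earlier work in blood or tumour cells was called at a rate near that of all genes. The list held 26 symbols, of which 17 were in the table, 16 were tested and 15 were members, and LINC00342 was the only one past the threshold, where 4.25% of all genes passed it. LINC00467, which encodes a mitochondrial micropeptide, stood at 418 and 409 normalized counts against 399 and 465. LINC00665, which also encodes a micropeptide, stood at 143 and 159 against 159 and 151. The groups overlapped in both, with log2 fold changes of 0.06 and 0.04. LINC00926 was at 0.16, LINC01094 at -0.05, and LINC00528 and LINC00877 at 0.18 and 0.24. LINC00174 and LINC01278 were at 0.22 each, higher in both anti-SGOL1-AS1 libraries than in either non-targeting library (limma, adjusted p = 0.324 and 0.296). LINC00662 and LINC01138 were at 0.12 and 0.08, LINC00511 at 0.10, LINC00265 at -0.06 and LINC00667 at -0.07. LINC00963 is given above, and LINC00173, under the minimum mean, was at -0.22.

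The change of a LINC member was only weakly related to that of its nearest coding gene. Each of the 285 members had a tested protein-coding gene on its chromosome, at a median distance of 24318 bases, and 263 different genes served as nearest neighbours. Pearson's r between the log2 fold changes of a member and its nearest coding gene was 0.14 and Spearman's rho 0.18 over the 285 pairs, which share all 4 libraries. Among these nearest genes, counted once for each member, 24 were called lower and 5 higher, where 4.97% of all protein-coding genes with a mean of at least 20 were lower and 0.702% higher. The nearest gene of LINC01572, PMFBP1, stood at 0.39 with no overlap (limma, adjusted p = 0.0738). RBM19, nearest to LINC01234, was at 0.13, ZNF33B, nearest to LINC00839, at 0.12, and GPC5 at 0.06. MTX2, nearest to LINC01117, was at -0.07 and HNRNPC at -0.03. Members beside FOS and JUN, genes of the immediate early response, and beside MEIS1 and SLC7A11 did not pass the threshold. They were named after their values were seen. LINC01220, 12174 bases from FOS, stood at 116 and 121 normalized counts against 103 and 107 with no overlap and an adjusted p of 0.636 by limma, while FOS fell by 0.50 on the log2 scale (limma, adjusted p = 0.000259). LINC01135, which starts beside JUN in the opposite direction, stood at 27.8 and 17.9 against 19.2 and 20.5, where JUN fell by 0.26. LINC01798, 161 bases from the leukaemia gene MEIS1, stood at 29.8 and 32.9 against 35.5 and 25.1, with overlapping groups, where MEIS1 rose by 0.41 (limma, adjusted p = 0.00241). LINC00499, 67362 bases from the cystine transporter gene SLC7A11, stood at 52.8 and 32.9 against 62.3 and 74.1 (log2 fold change 0.69 ± 0.25 SE, limma adjusted p = 0.126), and SLC7A11 rose by 0.37.

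**Figure D4:**
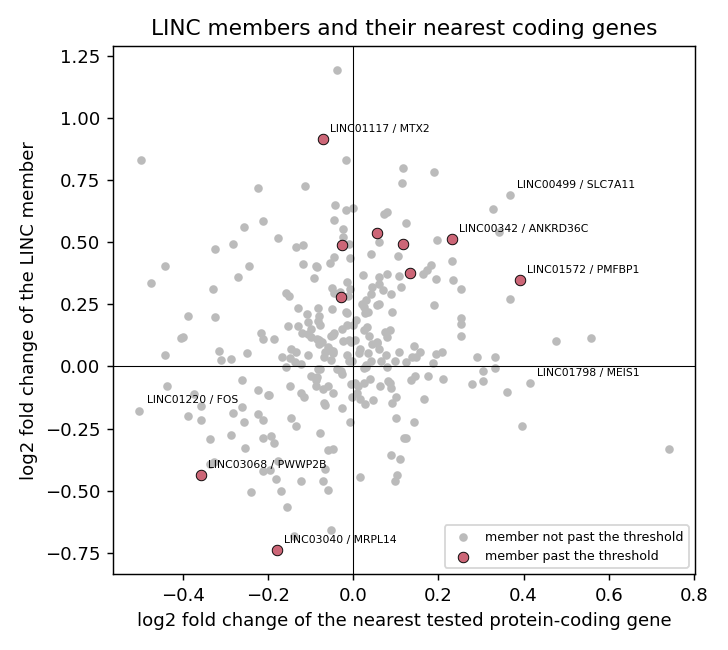
Log2 fold change of each of the 285 LINC members (vertical axis) and of its nearest tested protein-coding gene (horizontal axis), with the 10 called members in red. The points form a broad cloud around 0 (Pearson's r 0.14), and LINC03068 with PWWP2B is the pair in which both were called.

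The median change differed with the members' position, in groups of unequal size, and these differences were not tested. Members without a coding gene in their body had a median log2 fold change of 0.06 (n = 260, quartiles -0.09 and 0.29). Those with one on the same strand had 0.22 (n = 15, quartiles 0.05 and 0.26), and those with one on the opposite strand only 0.18 (n = 10, quartiles -0.05 and 0.47). The 14 members with a divergent coding start within 1000 bases had a median of -0.06 (quartiles -0.10 and 0.10). Of these 14, 0 were called by limma and 0 had an unadjusted p under 0.05, where the shares of all genes tested were 4.25% and 17.2%. Spearman's rho of the log2 fold change over the 285 members was -0.14 with GC content, -0.04 with exonic length and -0.06 with the mean. The members below the median GC of 47.8% had a median log2 fold change of 0.11, and 5 rose (3.52%) and 0 fell by limma. Those at or above it had 0.06, with 3 rising (2.1%) and 2 falling (1.4%). Of all genes tested 0.851% rose and 3.4% fell. A share of at least 10% of 31-base words with transcripts of other genes was found for 70 members, with a median of 0.10. Of these 70, 4 rose (5.71%) and 0 fell, beside the same shares of all genes. A share of at least 50% was found for 8 members. For these, including LINC00623 (71.4%) and LINC00869 (59.3%) from duplicated stretches of chromosome 1, the counting could split reads between copies. LINC00869 stood at 424 and 453 normalized counts against 507 and 551 (log2 fold change 0.27, limma adjusted p = 0.116).

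Few genes that process, export or degrade such RNAs were called. Of 104 genes on 5 lists, 99 were tested, and 3 fell and 0 rose by limma, where 3.4% of all genes fell and 0.851% rose. All 99 had a mean above 200, and of all genes with a mean of 200 or more 5.66% fell and 1.15% rose. At an unadjusted p under 0.05 there were 16, against 17.2% of all genes and 2433 of the 11016 genes with a mean of 200 or more. The median log2 fold change was -0.02 against -0.01 for all genes tested. Of 25 tested genes of the nuclear exosome and its adaptors limma called 0, with 6 at an unadjusted p under 0.05. The exosome subunit EXOSC9 stood at 2113 and 2123 normalized counts against 1743 and 1959 (log2 fold change -0.20 ± 0.07 SE, limma adjusted p = 0.100), and SRRT, which links the cap-binding complex to the exosome, at -0.16 (adjusted p = 0.0806). Of 14 genes of the Integrator complex, which ends transcription of many noncoding RNAs, INTS15 fell by 0.24 (limma, adjusted p = 0.0423) and INTS1 was at -0.12. Of 22 cleavage, polyadenylation and termination genes CSTF2T, a cleavage stimulation factor, fell from 2006 and 2089 to 1637 and 1785, by 0.26 on the log2 scale (limma, adjusted p = 0.021), and SYMPK was at -0.15. Of 21 decay genes the exonuclease XRN1 fell by 0.20 (limma, adjusted p = 0.0465) and EDC4, a decapping cofactor, was at -0.17. Of 17 export and retention genes limma called 0, with 2 at an unadjusted p under 0.05, THOC6 at -0.18 and DDX39A at -0.16. The total of 3 became 0 without non-targeting library 1 or 2, 6 without either anti-SGOL1-AS1 library, 1 with edgeR and 0 with DESeq2.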

How the data were processed

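RNA sequencing of THP-1 cells gave 4 libraries. Per the submitters' processing notes, STAR 2.5.1b, DESeq2 and GRCh38 were used, with no role stated. No source at hand states the annotation, how reads were counted or whether by strand. Each deposited value is a normalized signal: it equals a whole number of reads times 1 factor for the library, within 0.01 reads for 100% of values, so reads could be recovered. Anti-SGOL1-AS1 library 1 has at least 2 reads in every row, so LINC genes absent from that library were not analysed. Of 27106 genes 26579 matched a symbol and 26077 GENCODE 29.

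The test was limma 3.58.1 (R 4.3.3) with empirical Bayes and its mean-variance trend on log2(value + 1), for the 19398 genes whose mean was 10 or more. Adjusted p-values (Benjamini-Hochberg) cover all of these, with a threshold of 0.05. This scale understates changes of low genes. Alternatives were other filters, pseudocounts, scalings and empirical Bayes settings, each library left out, a GC and length correction, and edgeR 4.0.16 and DESeq2 1.42.0 on the recovered reads, which called 715 and 447 genes against 825. Where a library was left out, the remaining one of its group was taken to have the spread of the other group. The main limma fit was tested on simulated data, and the alternatives were not. Genes named were members past the threshold, the 6 highest, the 6 largest rises and falls without overlap, those on a list of studied LINC genes, those around the minimum mean, nearest coding genes of called members and up to 2 genes for each processing list. Members and lists were chosen with earlier results of these data known.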

Additional observations from a re-analysis of the deposited data

How the results depend on the processing

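The members' median kept its sign in every alternative run. Against 0.070 it was 0.048 for quantile-normalized values, 0.127 for libraries scaled to equal totals, and 0.062 to 0.095 with each library left out. The 2 lower members became 1 with DESeq2, quantile normalization or the same total. They became 0 with no mean-variance trend and 4 after the GC and length correction. The 8 higher members became 2 with DESeq2, 4 after quantile normalization and 0 with no trend. Over all genes, the 660 lower and 165 higher became 380 and 67 with DESeq2 and 334 and 142 after quantile normalization. They became 293 and 235 with the same total and 704 and 220 after the GC and length correction. The numbers of lower and higher members, like those over all genes, also changed with a library left out. With no trend limma called 0 of all genes tested, and 48 members had an unadjusted p under 0.05. The 3 called processing genes became 0 with DESeq2, quantile normalization, the same total or no trend, 1 with edgeR, no filter or the same median, 5 with robust empirical Bayes and 0 to 6 with a library left out; unadjusted p values under 0.05 numbered 12 with DESeq2, 24, 28 and 2. The causes were not tested. LINC03040, LINC00342 and LINC02908 lost their calls only with no trend. No paired analysis was possible because the anti-SGOL1-AS1 columns share only 1 replicate number with the non-targeting columns. At means of 20 to 50 limma called 0 members, where 0.389% of all genes were called higher and 0.248% lower. The part of sequencing depth in this was not tested. Equal totals put the median of all genes at 0.047 and quantile normalization at 0.010, against -0.010 in the main run.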
